A study of Mus musculus with 18 samples.

Results

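The 12 libraries compared here came from forestomachs of mice that had all been gavaged with the esophageal carcinogen N-nitrosomethylbenzylamine (NMBA), and they differ in their sample numbers, 1 to 3 or 4 to 6. Libraries were chosen by title, 6 numbered NMBA 4 to 6 and 6 numbered NMBA 1 to 3, out of 18 in the series. Each set holds 3 wild-type C57BL/6 mice and 3 CCR2-/- mice, which lack the receptor of the chemokine CCL2. All mice were males, young when dosing began, and NMBA was dosed at 0.25 mg/kg in 2 gavages each week over 5 weeks, with tissue taken at the end of week 25. The other 6 libraries are controls, 3 wild-type and 3 CCR2-/-, gavaged with 1% carboxymethyl cellulose. Column names carry the letter M for wild-type NMBA 1 to 3, G for wild-type NMBA 4 to 6, O for CCR2-/- NMBA 1 to 3 and I for CCR2-/- NMBA 4 to 6. No label states a difference of treatment, time or handling between the letters, so sample number and letter cannot be told apart. The label for cell type reads esophageal cancer, and the study sequenced tumors, but the share of tumor in each NMBA library is not known here.

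The mouse forestomach is lined by a stratified, cornified squamous epithelium like that of the esophagus. Basal keratinocytes with Krt5 divide, suprabasal cells turn on Krt1, Krt10 or Krt4, and the outermost cells build an envelope from small proline-rich proteins of the Sprr family. Injured or overgrowing squamous epithelium switches on Krt6, Krt16, antimicrobial peptides and the S100a8 and S100a9 alarmins. The adjoining glandular stomach has mucous cells with Tff1 and Gkn2, chief cells with Pgc, parietal cells with Atp4b and endocrine cells with Ghrl. A thick smooth muscle wall lies under both. In bulk tissue, fewer cells of a type and less RNA per cell cannot be told apart.

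Values are FPKM, fragments scaled to transcript length and to library depth, as deposited, and differences are on log2(FPKM + 1) as NMBA 4 to 6 minus NMBA 1 to 3, with genotype in the model and the standard error (SE) given. A gene was called at an adjusted p below 0.05 in limma, over the 14409 genes that reached 0.5 FPKM in 3 NMBA libraries or more. The depth of the NMBA libraries was inferred from the most common FPKM ratio between wild-type control 1 and each library, among entries low in both. It ran from 0.993 to 1.21 times that of wild-type control 1. Pearson's r between the 12 libraries across genes was 0.942 to 0.985. The targeted gene, Ccr2, measured 1.3 to 3.43 FPKM in the 6 wild-type NMBA libraries and 0 to 0.0798 FPKM in the 6 CCR2-/- ones, so genotype and label matched in both sets. Both squamous and glandular genes were abundant, with Krt1 at 6035 to 11336 FPKM and Pgc at 2057 to 40444 FPKM over the 12 libraries. Labels do not say whether libraries of a group came from separate litters or cages, so p-values measure the spread between these samples.

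First, the NMBA libraries were laid out by their main axes of variation. The first principal component carried 28.1% of the variance and the second 21.5%. Gkn1, Tff2, Ghrl and Tff1 lay high on the first component, and Malat1 and Atp7a lay low. Stfa1, S100a8, Defb3 and Spink7 lay high on the second, and Igkv5-39, Pgc, Chia1, Ghrl and Atp4b lay low. Genes of the glandular stomach were thus at 1 end of each component. Wild-type NMBA 6 had the highest score on the first component, 47.5, followed by wild-type NMBA 4 at 22.4, and CCR2-/- NMBA 4 had the lowest score on the second, -35.8. CCR2-/- NMBA 6 and wild-type NMBA 5 lay among the NMBA 1 to 3 libraries on the first component, with scores of -14.8 and -5.21.

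**Figure D1:**
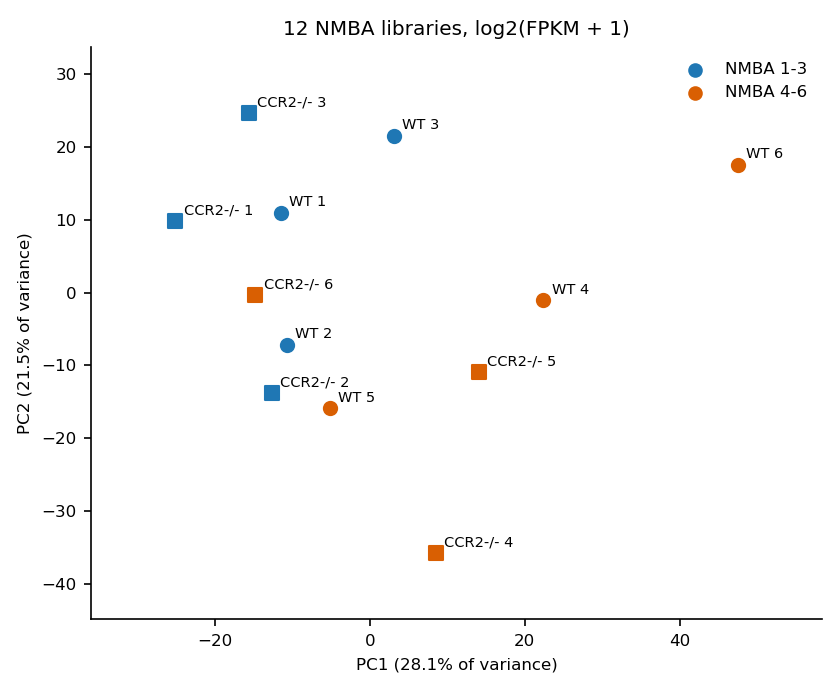
Scores of the 12 NMBA libraries on the first and second principal component of log2(FPKM + 1), with the share of variance on each axis. Blue marks NMBA 1 to 3, orange NMBA 4 to 6, circles wild type and squares CCR2-/-; wild-type NMBA 6 stands farthest right, at 47.5.

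Next, the sets were compared gene by gene over both genotypes. In NMBA 4 to 6, 2 genes were higher, 0.0139% of those tested, and 14 were lower, 0.0972%, by limma with Benjamini-Hochberg adjustment. Their adjusted p values lay between 0.0401 and 0.0492. The higher genes were Sult1e1, an estrogen sulfotransferase, and Scgb1a1, a secretoglobin best known from airway club cells. The lower genes included Spink7, a serine protease inhibitor of the esophageal epithelium in humans, Il1rn, the interleukin-1 receptor antagonist, and Slc7a11, the cystine transporter subunit xCT. Without the adjustment, 1057 genes were higher and 1566 lower at a p below 0.05, and the median over all genes tested was -0.03, with 44% of genes above 0.

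Among called genes, the upstream sequence is shown for Il1rn and Slc7a11, the only ones to hold a motif searched, and for Sult1e1, 1 of the higher genes, which held none. Each runs 5′ to 3′ over the 250 bases before the start site in RefSeq on GRCm38.p6, and capitals mark a motif. The motifs were AP-1 (TGANTCA) and the amino acid response element (TGATGCAA), searched on both strands. The windows are chr2:24336610-24336859 on the plus strand for Il1rn, the first of its 3 starts in that annotation, chr3:50443614-50443863 on the minus strand for Slc7a11 and chr5:87591612-87591861 on the minus strand for Sult1e1.
Il1rn: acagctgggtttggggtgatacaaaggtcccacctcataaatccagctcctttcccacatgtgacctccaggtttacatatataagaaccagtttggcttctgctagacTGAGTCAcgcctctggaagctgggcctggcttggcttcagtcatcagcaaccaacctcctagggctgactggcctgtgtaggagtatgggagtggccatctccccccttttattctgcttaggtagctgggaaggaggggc
Slc7a11: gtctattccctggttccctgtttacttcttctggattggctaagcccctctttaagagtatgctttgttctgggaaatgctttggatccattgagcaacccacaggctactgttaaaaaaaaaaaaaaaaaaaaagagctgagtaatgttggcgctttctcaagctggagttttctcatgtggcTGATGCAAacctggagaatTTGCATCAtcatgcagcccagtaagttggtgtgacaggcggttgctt
Sult1e1: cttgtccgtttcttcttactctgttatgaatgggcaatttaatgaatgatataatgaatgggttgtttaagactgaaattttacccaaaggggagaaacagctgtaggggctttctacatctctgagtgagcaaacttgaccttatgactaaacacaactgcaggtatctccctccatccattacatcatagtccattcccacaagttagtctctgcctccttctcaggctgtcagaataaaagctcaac
Slc7a11 held the amino acid response element 2 times, in opposite orientation. Of the 16 called genes 14 had a window in the table, and 1 held AP-1 and 1 the amino acid response element. Over all 32851 windows, 6.75% held AP-1 and 0.791% the amino acid response element, and of 27025 genes 7.82% and 0.918% had a window that did. A match is a run of letters and not a measured site.

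Spink7 had the largest decrease. It measured 34.7, 60.9 and 84 FPKM in NMBA 1 to 3 as lowest, median and highest library, and 6.43, 11.4 and 23.3 FPKM in NMBA 4 to 6. The sets did not overlap, and the difference was -2.17 (SE 0.29, adjusted p = 0.0401, limma). It was -1.84 in wild type and -2.50 in CCR2-/-. Controls measured 0.181 to 2.21 FPKM, below every NMBA library of either set.

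Il1rn, which blocks interleukin-1 at its receptor, measured 11.7, 13.4 and 16.5 FPKM in NMBA 1 to 3 and 6.24, 7.93 and 9.33 FPKM in NMBA 4 to 6. The sets were apart, and the difference was -0.78 (SE 0.106, adjusted p = 0.0401, limma). Slc7a11, which imports cystine for glutathione synthesis, measured 21.9, 30.5 and 38 FPKM in NMBA 1 to 3 and 7.88, 13.5 and 17.4 FPKM in NMBA 4 to 6, a difference of -1.14 (SE 0.182, adjusted p = 0.0471, limma). The sets did not overlap for this gene either. Ces1h, a carboxylesterase, measured 12.2, 22 and 30 FPKM in NMBA 1 to 3 and 5.13, 6.8 and 8.91 FPKM in NMBA 4 to 6, a difference of -1.52 (SE 0.209, adjusted p = 0.0401, limma).

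Sult1e1 measured 0.428, 0.807 and 1.32 FPKM in NMBA 1 to 3 and 1.81, 3.41 and 5.06 FPKM in NMBA 4 to 6. Every NMBA 4 to 6 library was above every NMBA 1 to 3 library, with a difference of 1.21 (SE 0.187, adjusted p = 0.0471, limma). Scgb1a1 measured 24.8, 44.7 and 64.2 FPKM in NMBA 1 to 3 and 79.6, 96.4 and 162 FPKM in NMBA 4 to 6, a difference of 1.24 (SE 0.206, adjusted p = 0.0492, limma). Control medians were higher still, 4.23 FPKM for Sult1e1 and 125 FPKM for Scgb1a1, with ranges that overlapped NMBA 4 to 6.

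**Figure D2:**
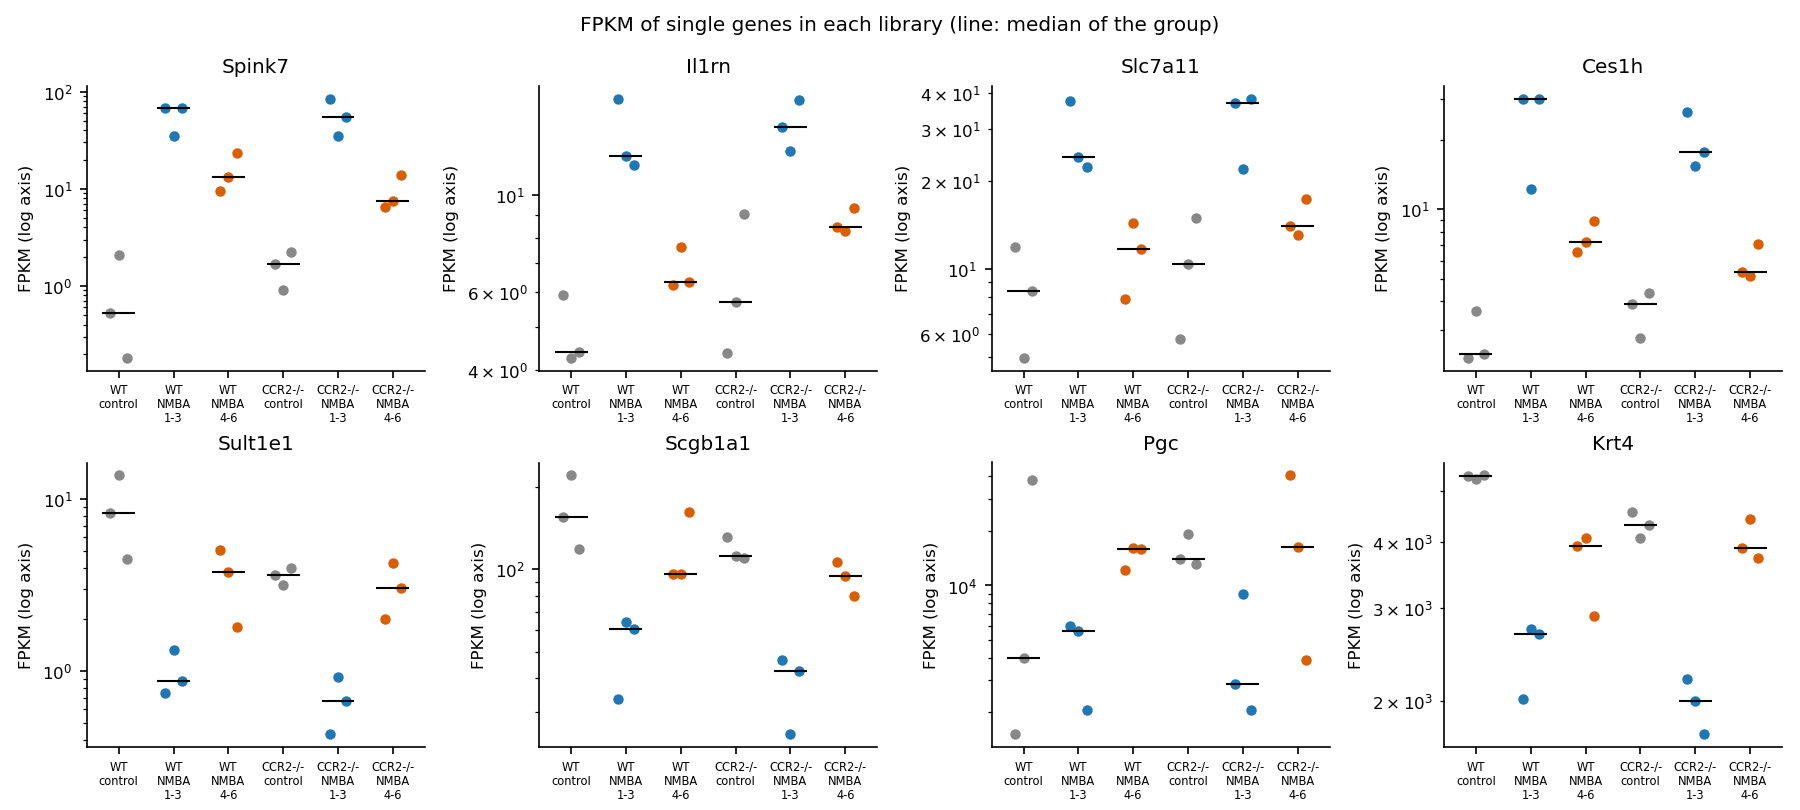
FPKM on log axes of 8 genes in each library, by genotype, treatment and set, with the group median as a line. For Spink7 the NMBA 4 to 6 libraries sit at 6.43 to 23.3 FPKM, between the controls and NMBA 1 to 3, while Pgc overlaps between the sets.

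The other 10 called genes all fell, by -1.06 to -0.40, and none exceeded 18.4 FPKM as the mean of a set. They were Slc16a14, of the monocarboxylate transporter family (-1.06), Lpo, lactoperoxidase (-1.04), Hephl1, a copper-dependent ferroxidase (-0.89), Cemip, which breaks down hyaluronan (-0.74), and Mapk6, the kinase ERK3 (-0.67). The remaining 5 were a joined entry of Gm17322 and Cyp11a1, which makes pregnenolone from cholesterol (-0.66), Hpgds, a prostaglandin D synthase (-0.62), the ligand Wnt3 (-0.57), Lrp8, a reelin receptor (-0.49), and Apol8, an apolipoprotein L (-0.40). Since the joined entry holds more than 1 gene, its reads cannot be assigned to Cyp11a1. Lpo, Cemip and the joined entry were named after their values were seen, since the rule asked for ordinary symbols and sets without overlap. Of the 16 called genes 14 had sets that did not overlap, where 62 of all genes were apart with NMBA 4 to 6 higher (0.43%) and 158 with NMBA 4 to 6 lower (1.1%). The 16 genes were called on the values of these same libraries, which favours sets without overlap, so that count is no separate check. All 16 had the same sign in both genotypes, but they were called from both genotypes together, so the shared sign is no separate check either.

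How many genes were called rested on single libraries. Without wild-type NMBA 5, 124 genes were higher and 367 lower, and without CCR2-/- NMBA 6 they were 281 and 144, with all 16 genes among them in both fits. Without CCR2-/- NMBA 2 they were 10 and 31. Without wild-type NMBA 2 they were 2 and 5, and without wild-type NMBA 6 they were 1 and 7. No gene was called by limma without wild-type NMBA 1, 3 or 4 or without CCR2-/- NMBA 1, 3, 4 or 5, with 799 to 890 genes higher and 1080 to 1497 lower at an unadjusted p below 0.05. Spink7 was called in 14 of 28 alternatives and ranged from -2.42 to -1.72. Il1rn was called in 13 of 28, from -0.94 to -0.58. No gene was called by limma after median-of-ratios scaling or quantile normalization, with lowest adjusted p values of 0.0621 and 0.0567.

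**Figure D3:**
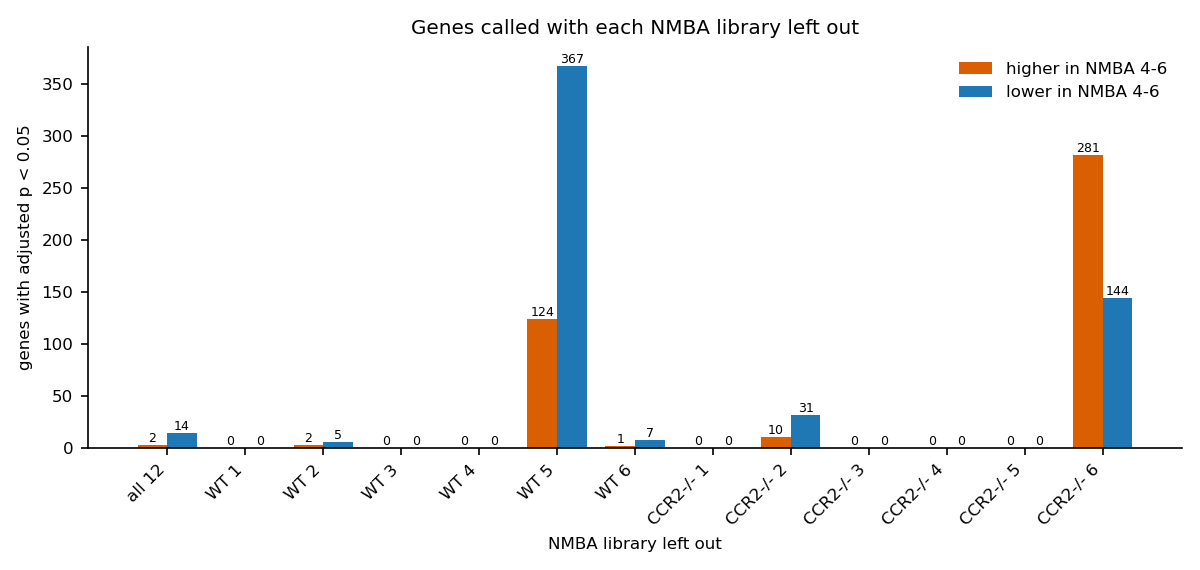
Number of genes at an adjusted p below 0.05 (limma) with all 12 NMBA libraries and with each left out in turn, as bars for genes higher (orange) and lower (blue) in NMBA 4 to 6. The counts run from 0 to 281 higher and from 0 to 367 lower.

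Squamous genes were then examined by list. Of 92 squamous genes tested, none was called by limma, with 3 higher and 45 lower at an unadjusted p below 0.05. Over all 14409 genes tested, 1057 were higher and 1566 lower at that threshold. Of the 92, 16 lay above 0 and the median difference was -0.37, against -0.03 over all genes. Members of a list were measured in the same libraries, so they are not separate observations. The stress keratinocyte list, genes of injured or overgrowing squamous epithelium, had the lowest median, -0.66, with 24 of 25 members below 0 and 14 below 0 at an unadjusted p below 0.05. The mean level of this list was 5.14, 6 and 6.24 on log2(FPKM + 1) in NMBA 1 to 3 as lowest, median and highest library and 4.76, 5 and 6.19 in NMBA 4 to 6. The NMBA 4 to 6 value of 6.19 was that of wild-type NMBA 6, and the other 5 libraries of the set lay at or below 5.1. Controls lay lower, at 3.65 to 4.28.

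Among stress genes, Krt16, a keratin of rapidly growing epithelium, measured 552, 831 and 987 FPKM in NMBA 1 to 3 and 421, 485 and 836 FPKM in NMBA 4 to 6, with overlap and a difference of -0.51 (SE 0.201, adjusted p = 0.213, limma). Slpi, a secreted protease inhibitor, had a difference of -0.30 (SE 0.185, adjusted p = 0.394, limma). The members farthest from 0, named after their values were seen, were Defb3, a beta-defensin, and Stfa1, a stefin of the cysteine protease inhibitors. Defb3 measured 16.2, 85.1 and 139 FPKM in NMBA 1 to 3 and 4.01, 14.5 and 70.3 FPKM in NMBA 4 to 6, a difference of -1.96 (SE 0.615, adjusted p = 0.152, limma). Stfa1 had a difference of -1.85 (SE 0.529, adjusted p = 0.132, limma), and its highest NMBA 4 to 6 library was wild-type NMBA 6. S100a8, S100a9 and Slpi are expressed by neutrophils as well as by stressed keratinocytes.

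Of 24 cornified envelope genes 21 lay below 0, with a median of -0.35 and none called by limma. Sprr3 and Cnfn, its most abundant members, had differences of -0.13 (SE 0.129) and -0.26 (SE 0.244). Sprr2f, the member farthest from 0 and named after its values were seen, measured 57.9, 116 and 209 FPKM in NMBA 1 to 3 and 18.5, 29.1 and 88.5 FPKM in NMBA 4 to 6, a difference of -1.65 (SE 0.407, adjusted p = 0.112, limma). In controls Sprr2f measured 0.914 to 6.06 FPKM.

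Of 14 basal keratinocyte genes 10 lay below 0, with a median of -0.33. Krt5, the basal keratin, measured 466, 575 and 781 FPKM in NMBA 1 to 3 and 326, 377 and 635 FPKM in NMBA 4 to 6, a difference of -0.53 (SE 0.184, adjusted p = 0.173, limma). Col17a1, a collagen of the hemidesmosome, had a difference of -0.63 (SE 0.145, adjusted p = 0.101, limma). Of 13 desmosome genes 11 lay below 0, with a median of -0.27. Dsp, desmoplakin, measured 278, 327 and 425 FPKM in NMBA 1 to 3 and 144, 248 and 276 FPKM in NMBA 4 to 6, so the sets were apart, with a difference of -0.63 (SE 0.161, adjusted p = 0.118, limma). Perp, a desmosome protein, had a difference of -0.27 (SE 0.157).

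Suprabasal keratinocyte genes were divided, with 6 of 16 above 0 and a median of -0.14. Krt1 and Krt10, the keratins of cornifying epithelium, had differences of -0.35 (SE 0.157) and -0.29 (SE 0.142), with adjusted p = 0.258 and 0.301 in limma. Krt4, a keratin of esophageal epithelium and named after its values were seen, measured 1725, 2104 and 2733 FPKM in NMBA 1 to 3 and 2890.2, 3909.9 and 4409.8 FPKM in NMBA 4 to 6. The Krt4 sets did not overlap, and the difference was 0.79 (SE 0.15, adjusted p = 0.0785, limma), which did not pass. Controls measured 4070.0 to 5342 FPKM. Krt14 was not analysed here.

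Glandular genes lay on the other side. All 49 glandular genes tested were above 0, with a median of 0.91, and none was called by limma, with 41 at an unadjusted p below 0.05. Over all 14409 genes tested, 44% lay above 0 and 1057 were higher at that threshold. The 49 genes were measured in the same libraries, so they are not separate observations. Pgc, the chief cell protease precursor, measured 2057, 4232 and 8989 FPKM in NMBA 1 to 3 and 3894, 16042 and 40444 FPKM in NMBA 4 to 6. CCR2-/- NMBA 4 was the highest library and CCR2-/- NMBA 6 the lowest of its set, below 3 libraries of NMBA 1 to 3. The difference was 1.85 (SE 0.527, adjusted p = 0.13, limma). Pgc took 0.497 to 2.36% of the FPKM of a library in NMBA 1 to 3 and 1.03 to 9.51% in NMBA 4 to 6.

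Surface and neck mucous cell genes had the highest median of the glandular lists, 1.23 over 14 genes. Tff1, a trefoil peptide of surface mucus, measured 1322, 2495 and 5112 FPKM in NMBA 1 to 3 and 1905, 7681 and 14643 FPKM in NMBA 4 to 6, a difference of 1.45 (SE 0.455, adjusted p = 0.152, limma). Gkn2, gastrokine 2, had a difference of 1.33 (SE 0.446). The mean level of the list was 5.24 to 6.93 on log2(FPKM + 1) in NMBA 1 to 3, and in NMBA 4 to 6 it was 5.53 in CCR2-/- NMBA 6 and 6.97 to 7.94 in the other 5 libraries.

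Chief cell genes had a median of 1.06 over 6 genes, with the chitinase Chia1 at 1.68 (SE 0.6). Parietal cell genes had a median of 0.78 over 7 genes. Atp4b, the beta subunit of the proton pump, had a difference of 1.44 (SE 0.469) and Kcne2, a potassium channel subunit, 1.33 (SE 0.379), with adjusted p = 0.156 and 0.13 in limma. Gastric endocrine genes had a median of 0.53 over 7 genes, with Ghrl, the ghrelin precursor, at 1.51 (SE 0.495) and Chga, chromogranin A, at 1.27 (SE 0.348). Simple epithelium genes had a median of 0.83 over 15 genes, with Krt19 at 1.05 (SE 0.391) and Krt18 at 1.17 (SE 0.447). Of 15 entries on the pancreas and liver list, only 5 passed the filter. These had a median of 1.50, with Clps, colipase, at 1.78 (SE 0.516) and Apoa1 at 1.50 (SE 0.419). Clps made up most of the summed level of the list, as in CCR2-/- NMBA 3 with 929 of 983 FPKM. Whether pancreas or liver tissue was present was not tested. CCR2-/- NMBA 6 had the lowest library level of its set for each of these 6 lists, and for each of them it lay within the range of NMBA 1 to 3. Without this library Pgc (2.25, adjusted p = 0.029), Atp4b (1.86, 0.0242), Kcne2 (1.69, 0.0191), Tff1 (1.82, 0.0286) and Chga (1.55, 0.0242) were called higher by limma. Chia1 (2.09, adjusted p = 0.0583, limma) was not called. Leaving out the library lowest for these lists widens their difference by itself, and Pgc, Atp4b, Kcne2 and Tff1 were called in 1 of 28 alternatives.

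**Figure D4:**
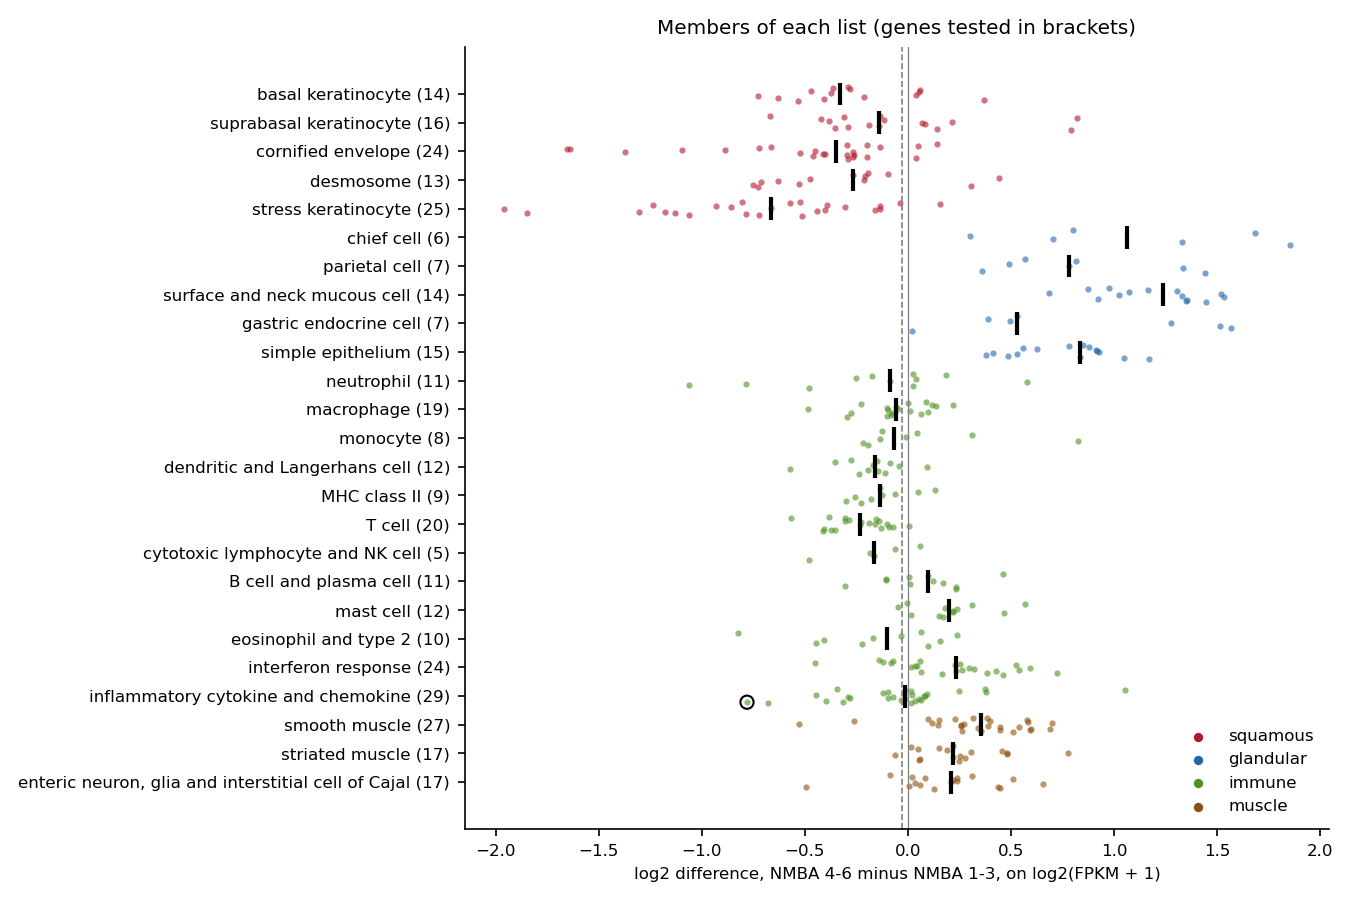
Difference between the sets, NMBA 4 to 6 minus NMBA 1 to 3 on log2(FPKM + 1), for each tested member (point) of the squamous, glandular, immune and muscle lists, with the list median as a black line and the median over all genes (-0.03) dashed. All 49 glandular members lie right of 0, and a ring marks Il1rn, the only member called (adjusted p below 0.05, limma).

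The mean level of all glandular genes was 3.42 to 4.66 on log2(FPKM + 1) in NMBA 1 to 3, 3.61 to 5.57 in NMBA 4 to 6 and 3.27 to 5.43 in controls, so the sets overlapped. With the mean of the glandular lists as a covariate, no gene was called by limma, the lowest adjusted p was 0.759, and 317 genes were higher and 428 lower at an unadjusted p below 0.05. Under it Spink7 differed by -1.72, Ces1h by -1.24, Scgb1a1 by 1.19 and Sult1e1 by 1.27. The medians of mucous cell and simple epithelium genes were then -0.05 and -0.12. These genes were part of the covariate, so the fit itself draws their differences toward 0. The median of interferon response genes, which were not part of it, was then -0.14, against 0.23 without it. Under this covariate and all other alternatives run, the 16 called genes kept their direction in 446 of 446 values and were called in 153. The alternatives refit the libraries from which these genes were called, so the kept direction is no separate check. Without the 2 NMBA libraries highest in Pgc, CCR2-/- NMBA 4 and 5, which leaves 1 library in that arm, no gene was called, the lowest adjusted p was 0.416, and 485 genes were higher and 784 lower at an unadjusted p below 0.05.

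Immune lists showed small median differences. Of 170 immune genes tested 74 lay above 0, the median was -0.05, and Il1rn was the only gene called by limma. At an unadjusted p below 0.05, 7 immune genes were higher and 21 lower, against 1057 and 1566 of all 14409 genes tested. Which cells carried Il1rn was not tested. Of 20 T cell genes 19 lay below 0, 8 of them at an unadjusted p below 0.05, with a median of -0.23. Bcl11b, a T cell transcription factor also expressed in keratinocytes, measured 4.45, 5.18 and 5.5 FPKM in NMBA 1 to 3 and 3.02, 3.57 and 4.41 FPKM in NMBA 4 to 6, sets that did not overlap, with a difference of -0.38 (SE 0.0941, adjusted p = 0.112, limma). Trbc2, a T cell receptor constant region, had a difference of -0.23 (SE 0.313). The mean level of the T cell list was 1.18 to 1.45 on log2(FPKM + 1) in NMBA 1 to 3 and 0.739 to 1.32 in NMBA 4 to 6.

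Neutrophil genes had a median of -0.09 over 11 genes and varied widely within each set. S100a8 measured 45.1, 296 and 559.6 FPKM in NMBA 1 to 3 and 44.1, 80.6 and 787 FPKM in NMBA 4 to 6, where 787 FPKM was wild-type NMBA 6. The difference was -1.06 (SE 0.754, adjusted p = 0.469, limma), within the spread of the libraries. Macrophage genes had a median of -0.06 over 19 genes, with Lyz2, lysozyme, at -0.05 (SE 0.222) and C1qb at 0.10 (SE 0.211). Without CCR2-/- NMBA 2 the macrophage median was 0.03. MHC class II genes had a median of -0.14 over 9 genes, with Cd74 at -0.14 (SE 0.168) and H2-Eb1 at -0.18 (SE 0.175). Mast cell genes had 10 of 12 above 0 and a median of 0.20, with the tryptase Tpsb2 at 0.22 (SE 0.186). Interferon response genes had 19 of 24 above 0 and a median of 0.23, with Bst2 at 0.52 (SE 0.239) and Ifi27l2a at 0.23 (SE 0.256). In the list of eosinophil and type 2 genes the median was -0.10 over 10 genes. Its most abundant members were Arg1 at -0.82 (SE 0.239) and Il33 at -0.41 (SE 0.0954). These were the only 2 members lower at an unadjusted p below 0.05 in limma, and which cells carried them was not tested. Ccl2 had a difference of -0.09 (SE 0.189) and Ccr2 of -0.22 (SE 0.121).

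Genes of the muscle class, which includes enteric neuron, glia and interstitial cell genes, lay above 0 in 56 of 61, with a median of 0.26. None of the 61 was called by limma. At an unadjusted p below 0.05, 9 were higher and 1 lower, against 1057 and 1566 of all 14409 genes tested. In the enteric list alone, 4 were higher and 1 lower. Of 27 smooth muscle genes 25 were above 0, with a median of 0.35. Acta2, smooth muscle actin, measured 509, 1297 and 1619 FPKM in NMBA 1 to 3 and 954, 1802 and 2057 FPKM in NMBA 4 to 6, a difference of 0.51 (SE 0.279, adjusted p = 0.35, limma). The lowest NMBA 1 to 3 value, 509 FPKM, was CCR2-/- NMBA 3. Tagln, transgelin, had a difference of 0.44 (SE 0.248). The smooth muscle median was 0.00 in wild type and 0.80 in CCR2-/-, a gap between genotypes that was not tested over the list. Striated muscle genes had 16 of 17 above 0 and a median of 0.22. Of its 2 most abundant members, Ckm, creatine kinase of muscle, lay at 0.46 (SE 0.211). The other, Tnnt2, was the member below 0, at -0.06 (SE 0.114). Enteric neuron, glia and interstitial cell genes had 15 of 17 above 0 and a median of 0.21, which was 0.00 in wild type and 0.35 in CCR2-/-. The 2 members below 0 were its most abundant, Tubb3 at -0.49 (SE 0.143) and Ano1 at -0.09 (SE 0.116). With the smooth muscle mean as a covariate, no gene was called by limma, the lowest adjusted p was 0.0774, and 950 genes were higher and 2222 lower at an unadjusted p below 0.05.

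**Figure D5:**
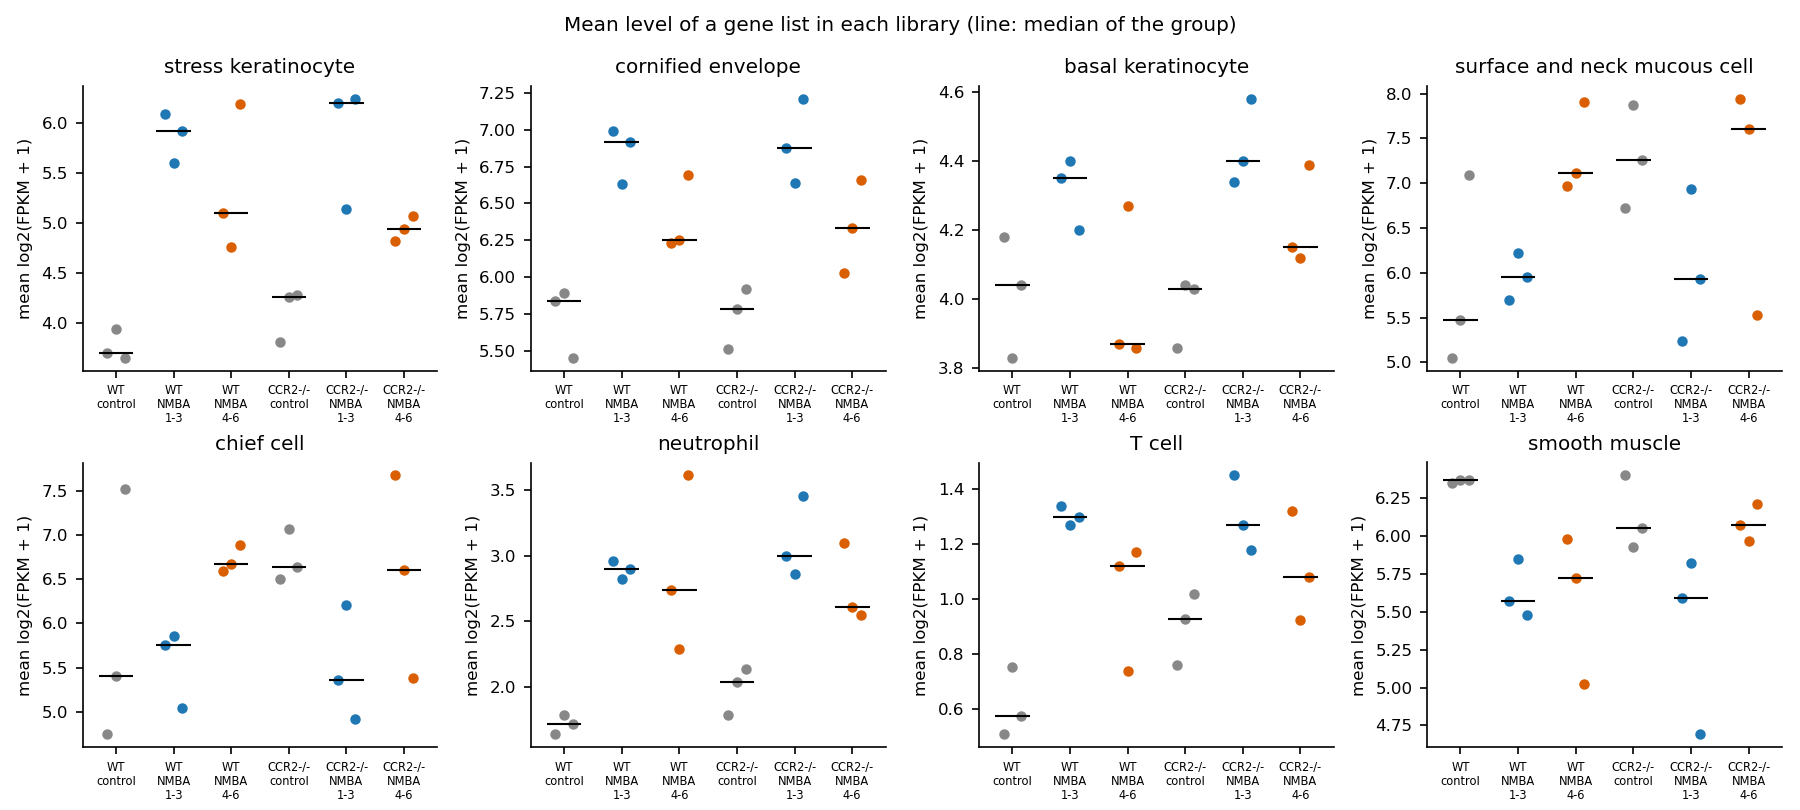
Mean level of 8 gene lists on log2(FPKM + 1) in each library, by genotype, treatment and set, with the group median as a line. For surface and neck mucous cell genes 5 NMBA 4 to 6 libraries lie at 6.97 to 7.94 and CCR2-/- NMBA 6 at 5.53; for stress keratinocyte genes wild-type NMBA 6 lies at 6.19, among NMBA 1 to 3.

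Among other lists, proliferation genes had 24 of 29 below 0 and a median of -0.31, with 14 below 0 at an unadjusted p below 0.05. Over all 14409 genes tested, 1566 were lower at that threshold. Cdc20, an activator of mitotic exit, measured 13.7, 17.5 and 23.1 FPKM in NMBA 1 to 3 and 8.56, 12.2 and 18.8 FPKM in NMBA 4 to 6, a difference of -0.47 (SE 0.159, adjusted p = 0.163, limma), and Pcna had a difference of -0.07 (SE 0.102). Oxidative phosphorylation genes had 21 of 25 above 0 and a median of 0.19, with Cox4i1 at 0.38 (SE 0.136). Atp5a1, also among its 2 most abundant members, overlapped, at 188 to 238 FPKM in NMBA 1 to 3 and 219 to 271 FPKM in NMBA 4 to 6.

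The difference varied with transcript length. Among genes with the shortest exons, 25% of those with a length and up to 2041 bases, the median difference was 0.04, and among the 25% with the longest, from 6115 bases, it was -0.10. In wild-type NMBA 4 and 6 the longest genes minus the shortest gave -0.28 and -0.50 on the log2 scale relative to the mean over the 12 libraries, against -0.16 to 0.18 in the other 10, which include 4 libraries of NMBA 4 to 6. Without these 2 libraries, which leaves 1 in that arm, no gene was called by limma, the lowest adjusted p was 0.0768, and 949 genes were higher and 982 lower at an unadjusted p below 0.05. The part of transcript length in single genes was not tested.

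To see whether the sets differed alike in both genotypes, they were also compared within each. In wild type no gene was called by limma, with 479 higher and 821 lower at an unadjusted p below 0.05, and in CCR2-/- none was called, with 710 and 747. The interaction of set and genotype had no called gene either, with 202 and 170 at an unadjusted p below 0.05. The smallest p values of the interaction belonged to Il10ra, a subunit of the interleukin-10 receptor, Snord89, a small nucleolar RNA, and Krt76, a keratin. Il10ra differed by -0.58 between sets in wild type and by 0.57 in CCR2-/-, an interaction of 1.15 (SE 0.235, adjusted p = 1, limma). Snord89 had an interaction of 1.00 (SE 0.232) and Krt76 of 0.87 (SE 0.203).

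Finally, each set was placed beside the controls. These comparisons share the same 6 control libraries, and both were fitted by limma over 14765 genes. Against control, NMBA 1 to 3 had 843 genes higher (5.71%) and 826 lower (5.59%), and NMBA 4 to 6 had 12 higher (0.0813%) and none lower. The 12 genes were Spink7, Sprr1b, Sprr2f, Sprr2g, Epgn, Mir31, Defb3, Dusp2, Krt17, S100a8, 2310046K23Rik and a joined entry of BC117090 and BC100530. With the smooth muscle mean as a covariate, 66 genes were called in NMBA 1 to 3 and 7 in NMBA 4 to 6. The count of NMBA 1 to 3 fell from 1669 to 830 without CCR2-/- control 1, to 871 without wild-type NMBA 1, to 879 without CCR2-/- NMBA 3 and to 1004 without wild-type NMBA 3, and that of NMBA 4 to 6 fell from 12 to 8 without wild-type control 1 or 3. The counts of 1669 and 12 are not themselves a test of the difference between the sets, which is the comparison with 16 genes above.

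Spink7 was 4.70 above control in NMBA 1 to 3 and 2.54 above control in NMBA 4 to 6. S100a8 was 6.20 and 5.14 above control, and Sprr2f 4.93 and 3.28. The median of the stress keratinocyte list was 1.28 above control in NMBA 1 to 3 and 0.69 above in NMBA 4 to 6, and 18 and 4 of its genes were called. Surface and neck mucous cell genes had medians of -0.59 and 0.59 against control, and none was called in either set. Smooth muscle genes had medians of -0.78 and -0.47, with 14 genes lower in NMBA 1 to 3 and none called in NMBA 4 to 6. The mean level of mucous cell genes itself ranged from 5.05 to 7.87 within the controls.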

How the data were processed

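RNA-seq libraries of 18 forestomachs (TruSeq, HiSeq) were analysed from the FPKM table deposited by the authors, which is normalized for length and depth; total counts per library were not used here. The submitters' processing notes list mm10 and GRCm38 as builds and DESeq2 among tools, without a role, and the aligner, counter and annotation are not given in the sources used here. Of 57234 entries, the 28934 with a reference gene were used, and 4.11 to 8.09% of the FPKM of a library lay in entries without one. Samples were grouped by title. A pseudocount of 1 was added, which understates changes of low genes, and genes with at least 0.5 FPKM in 3 libraries were fitted with limma 3.58.1 in R 4.3.3, with a trend, two-sided, genotype as covariate and Benjamini-Hochberg adjustment over all genes. Within-genotype differences and the interaction came from a 4-group model, and comparisons with control from a 6-group model of 18 libraries. Only the fit of the set difference over both genotypes was tested on simulated data, with values drawn independently for each gene. Genes that vary together across libraries, as list members can, were not simulated. Figures were drawn with matplotlib 3.10.9.

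The members and gene lists were chosen with earlier results of these data known. Genes were named by rule: per direction, up to 12 called genes of largest difference without overlap between sets and with ordinary symbols; of each list, up to 4 called members or else the 2 most abundant; Ccr2, Ccl2 and Pgc; and the 3 interaction genes of smallest p. Not every gene named by the rule is described. The 38 lists hold 694 symbols with an entry and 73 without. Promoters came from RefSeq (GRCm38.p6) and exon lengths from GENCODE, which covered 96.3% of genes tested. Alternatives changed the pseudocount, filter, scaling, weights, libraries and covariates.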

Additional observations from a re-analysis of the deposited data

Results flagged for a closer look

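In 202 sets of 6 libraries (named genes and list means on log2(FPKM + 1)), 19 had 1 library whose gap to its nearest neighbour was a larger share of the whole range than Dixon's 95% critical value, which chance exceeds in about 1 in 20 sets; the sets share libraries and genes. Wild-type NMBA 6 was highest in NMBA 4 to 6 for Lpo (gap 0.714), Stfa1 (0.683), S100a9 (0.659), S100a8 (0.657) and the stress keratinocyte mean (0.762). CCR2-/- NMBA 3 was lowest in NMBA 1 to 3 for Tagln (0.725), Acta2 (0.684), Tpsb2 (0.635) and the means of smooth muscle (0.681) and eosinophil and type 2 genes (0.691), and highest for the means of neutrophil (0.714) and hypoxia and glycolysis genes (0.667). CCR2-/- NMBA 6 was lowest in NMBA 4 to 6 for Apoa1 (0.689) and the pancreas and liver mean (0.629). CCR2-/- NMBA 4 was lowest for Perp (0.696), and CCR2-/- NMBA 2 was highest in NMBA 1 to 3 for the interferon response mean (0.727). Wild-type NMBA 4 was highest for the proliferation mean (0.694) and the erythrocyte mean (0.703), and wild-type NMBA 5 was lowest for the hypoxia and glycolysis mean (0.636).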

How the results depend on the processing

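The cause of each change given here was not tested. The counts of 2 genes higher and 14 lower became 0 and 3 with a pseudocount of 0.1, 1 and 15 with a pseudocount of 5, 0 and 0 without the filter, after median-of-ratios scaling, after quantile normalization, with the smooth muscle or glandular covariate, at an adjusted p below 0.01, without the 2 libraries highest in Pgc and without wild-type NMBA 4 and 6, 1 and 16 after scaling libraries to an equal FPKM sum, 202 and 420 with library weights, 0 and 6 over all entries, 6 and 20 with all 18 libraries in the model, 1 and 11 with robust spread, and 0 and 3 without the genotype covariate. Scaling to an equal sum moved the median of all genes to -0.12. Leaving out 1 library gave 0 to 281 higher and 0 to 367 lower. In wild type, calls became 1 without the filter, 128 with weights, 2 over all entries, 4 without wild-type NMBA 4 and 6, and 0 to 7 without 1 library. In CCR2-/- they became 1 without the filter, 1 over all entries, 2 without the libraries highest in Pgc, and 0 to 1 without 1 library. The interaction had 1 call without the filter, 5 without wild-type NMBA 4 and 6, and 0 to 1 without 1 library. NMBA 1 to 3 against control had 2767 calls with weights, 66 with the smooth muscle covariate, 466 at an adjusted p below 0.01 and 830 to 1898 without 1 library. NMBA 4 to 6 against control had 7 with the smooth muscle covariate and 8 to 14 without 1 library. Of 1316 values of genes not called, 36 were called, among them Krt4 in 4 of 28 settings and Col17a1, Bcl11b and Il33 in 3 each, and 10 changed sign: Trbc2 to 0.059 with the smooth muscle covariate; Ccl2 to 0.00825, Sprr3 to 0.103, Krt19 to -0.122 and Krt18 to -0.149 with the glandular covariate; Cnfn to 0.0472 without the libraries highest in Pgc; and, without 1 library, Ccl2, which ranged from -0.203 to 0.00183, without wild-type NMBA 5, and Lyz2, which ranged from -0.259 to 0.0476, without wild-type NMBA 5, wild-type NMBA 6 or CCR2-/- NMBA 2. Krt19 and Krt18 are members of the lists that made up the glandular covariate. The settings without the libraries highest in Pgc and without wild-type NMBA 4 and 6 were chosen after seeing the data, and each leaves 1 library in an arm, which is assumed to vary like the other groups. The sets share no replicate number, so their difference could not be blocked. With a replicate block the interaction had 0 calls. Deviations of same-numbered wild-type and CCR2-/- libraries correlated at -0.299 to 0.29. No reference value was computed for them, so whether the numbers pair samples is not known.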
